A study of Mus musculus with 30 samples.

Results

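Nnt, Wdfy1 and Rab4a stood furthest above wild type in untreated macrophages of mice lacking Ticam2, among genes that met limits on level, adjusted p, symbol and overlap given with the untreated values. They were selected on the KO over WT difference in untreated cells. They occupy 4 of the 32361 gene IDs of the deposited table, because Nnt is annotated there under 2 IDs, and all 4 passed the filter on low counts. The libraries that chose them were the 3 untreated Ticam2-/- and 3 untreated wild-type ones, so the untreated values are given as a description with no test. Tests are reported for the treated macrophages, whose libraries the choice did not use. The labels give 3 animals per genotype, so the treated libraries may come from the same mice and are not taken as independent animals.

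Nnt encodes nicotinamide nucleotide transhydrogenase, an enzyme of the inner mitochondrial membrane that uses the proton gradient to pass a hydride from NADH to NADP+ and so supplies NADPH to the glutathione and thioredoxin systems. C57BL/6J mice are known to carry a deletion of several Nnt exons that other C57BL/6 substrains lack. Wdfy1 encodes a WD-repeat protein with a FYVE domain, which binds phosphatidylinositol 3-phosphate (PI3P) on early endosomes, and it has been reported to help bring the adaptor TRIF to Toll-like receptors 3 and 4. Rab4a encodes a small GTPase of early endosomes that directs rapid recycling of receptors to the cell surface.

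The macrophages were grown from mouse bone marrow with macrophage colony-stimulating factor from L929 cell supernatant. Ticam2-/- mice (KO) were compared with wild-type mice (WT), and the labels name C57BL/6J, without giving the strain in which the Ticam2 allele was made or how far it was crossed. Ticam2 encodes TRAM, which couples Toll-like receptor 4 to TRIF. Cells of each genotype were treated with 10 ng/mL lipopolysaccharide (LPS, sensed by Toll-like receptor 4) for 2 h or 6 h, treated with 100 ng/mL lipoteichoic acid (LTA, sensed chiefly by Toll-like receptor 2) for 2 h or 6 h, or left untreated, which gives 10 groups of 3 libraries, 30 in all. Any other difference between the 3 KO and the 3 WT animals cannot be told apart from the loss of Ticam2.

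Depth ranged from 10641070 to 13521660 counts over the 18 libraries of untreated and 6 h macrophages, and from 1334784 to 2658329 over the 12 of 2 h. A count of 3 corresponds to 0.222 to 0.282 CPM, the count scaled to library size, in the deeper set and to 1.13 to 2.25 CPM in the 2 h set. The 2 h libraries also stood apart in genes of other cell types. The erythroid gene Hbb-bs was at 2100 to 3010 CPM in the deeper set and at 0 in all 12 libraries of 2 h, whereas the hepatocyte gene Alb was at 0 in all 18 deeper libraries and at 38.3 to 82.3 CPM at 2 h. Ttr, of the same hepatocyte list, went the other way, at 19.7 to 28.6 CPM in the deeper set and at 0 in all 12 libraries of 2 h. Summed over 6 fibroblast markers, the 2 h libraries held 194 to 347 CPM and the untreated libraries 5.1 to 6.67 CPM. The sum at 2 h rested mainly on Fn1, at 130 to 232 CPM, and Col1a1, at 35.2 to 82.3 CPM. In the deeper set Fn1 reached 1.72 CPM at most. Dcn was not higher at 2 h, with at most 0.691 CPM there and 0.89 CPM in the deeper set. At 6 h the sum over the 6 markers differed between genotypes. With LPS it was 11.5 to 14.4 CPM in KO and 41.4 to 44.7 CPM in WT. With LTA it was 10 to 11.7 CPM in KO and 76.4 to 78.4 CPM in WT. All 6 markers were counted in each group of 6 h, but at very unequal levels. Over the untreated and 6 h libraries Pdgfrb ranged from 0.326 to 72 CPM. Col1a1, the next highest of the list there, reached 3.67 CPM at most. Summed over 4 dendritic cell markers, the 6 h libraries with LPS held 1.48 to 2.37 CPM in KO and 8.83 to 11 CPM in WT. With LTA they held 1.1 to 1.51 CPM in KO and 8.15 to 9.71 CPM in WT. Over the untreated and 6 h libraries Ccr7 ranged from 0.326 to 10.6 CPM. Zbtb46, the next highest of that list, reached 0.647 CPM at most. The higher sums in WT at 6 h thus rested mainly on Pdgfrb and Ccr7, not on the whole lists. The part of these markers in the KO against WT results at 6 h was not tested. The macrophage genes Adgre1 and Csf1r were high in every library, at 643 CPM or more for Adgre1 and 583 CPM or more for Csf1r. Untreated libraries exist in the deeper set alone, so time and library set cannot be told apart.

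Ticam2 itself was lower in KO in all 5 conditions. Its mean level was 0.625 ± 0.238 CPM in untreated KO macrophages and 10.1 ± 0.941 CPM in untreated WT macrophages (SD, n = 3 each), a log2 fold change of -4.01 ± 0.21 (standard error). In the 2 h libraries the mean residual was larger, but it rested on few counts. With LPS for 2 h, the KO libraries held 0.708, 5.01 and 3.78 CPM (1, 14 and 7 counts). The first of these lies within the untreated KO range of 0.355 to 0.807 CPM. The WT libraries with LPS for 2 h held 13.5, 10.2 and 10.5 CPM, and the log2 fold change was -1.63 ± 0.33. Which part of the gene these counts came from was not analysed here.

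In untreated macrophages the values that chose the members ran from a log2 fold change of 2.07 for Wdfy1, through 1.91 for Rab4a, to 1.16 and 1.06 for the 2 Nnt IDs. The ranking took genes past an adjusted p of 0.05 whose log2 CPM averaged 2 or more, whose symbol was not provisional and whose KO and WT libraries did not overlap. Just outside came Tox2 at 0.99, with 8.9 CPM in KO and 4.44 CPM in WT, and Cdkn1c at 0.93, with 14.3 CPM in KO and 7.5 CPM in WT. Among all 15119 tested genes, without those limits, Wdfy1 ranked 16 and Rab4a 26, while the Nnt IDs ranked 81 and 114. In that comparison 13.4% of tested genes were called in either direction and 5.97% as higher in KO, and for 14.8% all 3 KO libraries lay above the 3 WT libraries.

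**Figure D1:**
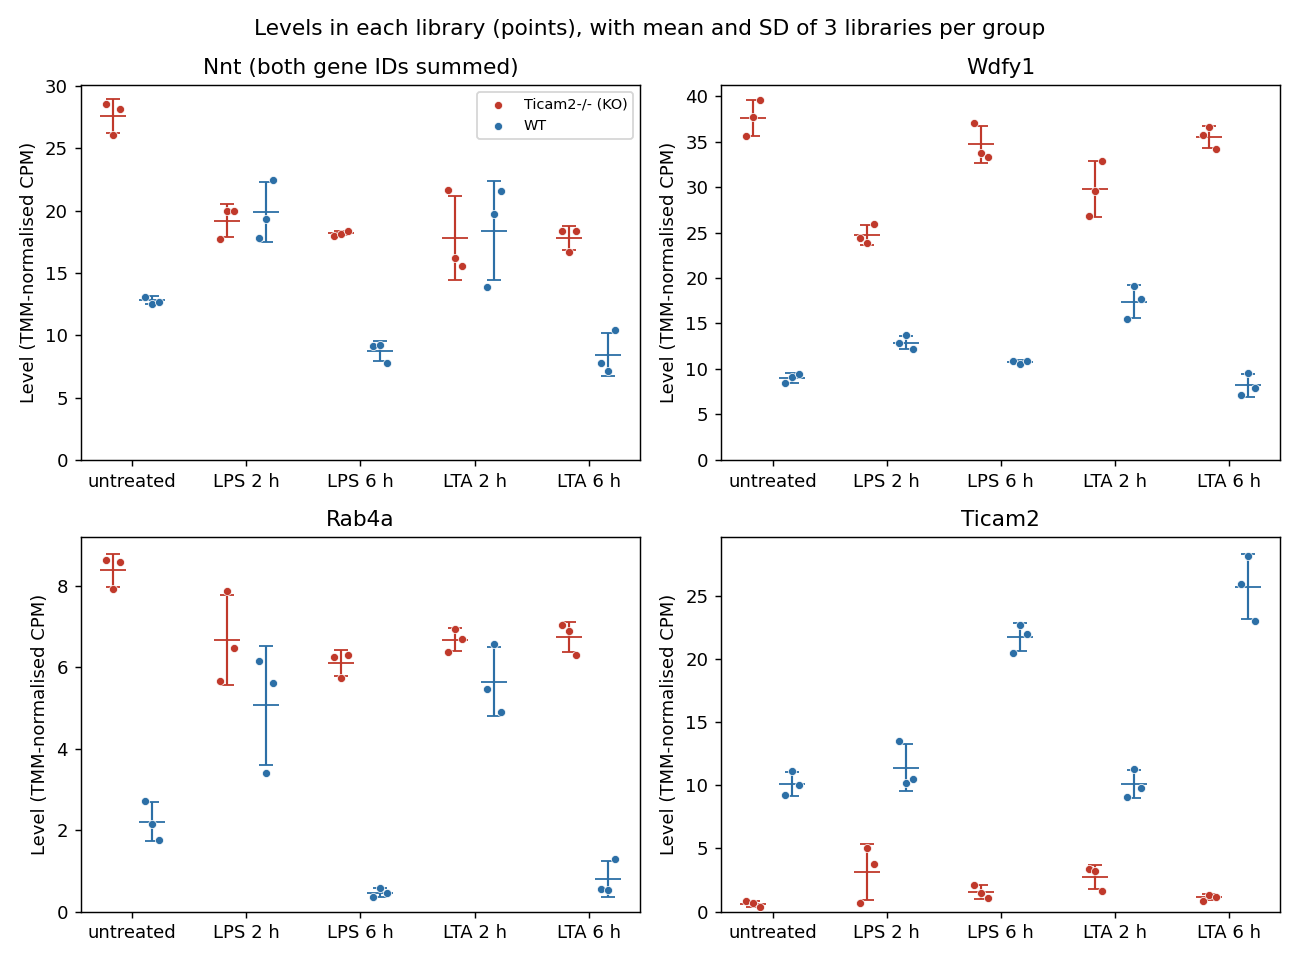
Levels of Nnt, Wdfy1, Rab4a and the targeted gene Ticam2 in CPM scaled by TMM (trimmed mean of M values) library sizes, by condition, in KO (left of each pair) and WT macrophages; points are libraries, bars the mean and SD of 3. The KO points lie above the WT points for all 3 members in untreated and 6 h macrophages, and at 2 h for Wdfy1 alone.

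Nnt was higher in KO macrophages by about the same factor with LPS and with LTA for 6 h, and did not differ detectably between genotypes at 2 h. Both of its IDs (ENSMUSG00000025453 and ENSMUSG00000116207, chromosome 13, 119335448 to 119408997 and 119335528 to 119408952 on the minus strand of GRCm38) are protein coding. All 3339 exon bases of the second lie within the 7037 of the first, so their counts are not separate measurements, and the count of the second was 0.864 to 1 times that of the first in each library. GRCm38 is a C57BL/6J assembly, so the counts cover the exons present in that strain, and the longest coding sequence annotated for either ID had 2505 bases in 17 exons. Levels below are sums over both IDs.

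The untreated KO libraries held 28.6, 26.1 and 28.2 CPM of Nnt and the untreated WT libraries 13.1, 12.5 and 12.7 CPM. With LPS for 6 h the KO libraries held 18, 18.1 and 18.4 CPM and the WT libraries 9.16, 9.26 and 7.78 CPM. With LTA for 6 h the KO libraries held 18.4, 16.7 and 18.4 CPM and the WT libraries 7.78, 7.15 and 10.4 CPM. In all 3 conditions every KO library lay above every WT library, and in both genotypes the treated libraries lay below the untreated ones. The log2 fold change of KO over WT was 1.07 ± 0.13 with LPS for 6 h (adjusted p = 5.8e-10) and 1.02 ± 0.13 with LTA for 6 h (adjusted p = 3.5e-09) for the first ID, by the quasi-likelihood test of edgeR, with Benjamini-Hochberg correction over all tested genes, as for every adjusted p here. With both IDs summed, a treatment chosen after the data were seen, the values were 1.06 ± 0.11 and 1.08 ± 0.11.

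These calls stand against a background in which most genes were called. Adjusted p was under the threshold of 0.05 for 63.3% of tested genes with LPS for 6 h and for 58.5% with LTA for 6 h, and 32.7% and 30.5% were called higher in KO. The 3 KO libraries all lay above the 3 WT libraries for 34.1% of genes with LPS and 33.2% with LTA. By log2 fold change Nnt ranked 1750 of 15119 with LPS and 1734 with LTA, so that many genes differed by more than it did.

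At 2 h the genotypes overlapped for Nnt. With LPS the KO libraries held 17.7, 20 and 20 CPM and the WT libraries 17.8, 19.3 and 22.5 CPM. With LTA the KO libraries held 21.7, 16.2 and 15.6 CPM and the WT libraries 13.9, 19.7 and 21.6 CPM. The WT libraries of 2 h lay above all other WT libraries, whose highest value was 13.1 CPM, while the KO libraries of 2 h lay in the range of the KO libraries of 6 h or near it. The log2 fold change of the first ID was -0.02 ± 0.23 with LPS (adjusted p = 1, 95% interval -0.48 to 0.43) and -0.02 ± 0.24 with LTA (adjusted p = 0.99, 95% interval -0.51 to 0.47). Both intervals lie below the values of 1.07 and 1.02 measured at 6 h. The background of genes called in either direction was 16.4% with LPS and 13% with LTA for 2 h.

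Wdfy1 (ENSMUSG00000073643, chromosome 1, 79702262 to 79776143 on the minus strand, 12 exons) was the member that was higher in KO in every condition, including both 2 h comparisons. The untreated KO libraries held 35.6, 37.7 and 39.6 CPM and the untreated WT libraries 8.41, 9.07 and 9.46 CPM. With LPS for 6 h the KO libraries held 37.0, 33.7 and 33.3 CPM and the WT libraries 10.9, 10.5 and 10.9 CPM. With LTA for 6 h the KO libraries held 35.7, 36.6 and 34.2 CPM and the WT libraries 7.11, 9.6 and 7.96 CPM. On the TMM scale the KO libraries thus stayed within 33.3 to 39.6 CPM across these conditions, and the WT libraries within 7.11 to 10.9 CPM. Scaled by library totals alone, the KO means were 43.1 CPM untreated, 34.8 CPM with LPS and 35.9 CPM with LTA. The WT means on that scale were 10.2, 7.53 and 6.15 CPM in the same order. The log2 fold change was 1.68 ± 0.08 with LPS (adjusted p = 5.6e-25) and 2.1 ± 0.09 with LTA (adjusted p = 3.2e-28), ranks 735 and 347 among all tested genes.

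With LPS for 2 h the KO libraries held 24.4, 23.8 and 25.9 CPM of Wdfy1 and the WT libraries 12.9, 13.7 and 12.2 CPM. With LTA for 2 h the KO libraries held 26.8, 29.6 and 32.9 CPM and the WT libraries 15.5, 19.1 and 17.7 CPM. The groups did not overlap with either ligand, as for 15.9% of genes with LPS and 15.6% with LTA, but they lay closer together than in the deeper set, with lower KO values and higher WT values. The log2 fold change was 0.92 ± 0.17 with LPS (adjusted p = 5.4e-05) and 0.75 ± 0.16 with LTA (adjusted p = 0.00049). At 2 h 9.11% of genes were called higher in KO with LPS and 7.83% with LTA.

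Wdfy1 shares 126 exon bases with Mrpl44, a mitochondrial ribosomal protein gene on the opposite strand, and the sources used here do not say whether the counting used strand. Of the 30 Wdfy1 values, 18 were not whole numbers, whereas every Mrpl44 count was whole. The source of the Wdfy1 fractions was not traced. Mrpl44 had 35.0, 32.5 and 34.4 CPM in untreated KO and 29.1, 25.2 and 27.3 CPM in untreated WT libraries, a log2 fold change of 0.32 ± 0.07 (adjusted p = 0.00055). With LPS for 6 h its log2 fold change was -0.17 ± 0.08 (adjusted p = 0.052), and with LTA for 6 h it was 0.29 ± 0.09 (adjusted p = 0.0034). Each of these is smaller than that of Wdfy1.

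Rab4a (ENSMUSG00000019478, chromosome 8, 123805985 to 123835287 on the plus strand, 8 exons) had the largest KO excess of the members at 6 h, where few WT counts remained. The untreated KO libraries held 8.63, 7.92 and 8.59 CPM and the untreated WT libraries 2.71, 2.15 and 1.77 CPM. With LPS for 6 h the KO libraries held 6.26, 5.74 and 6.3 CPM and the WT libraries 0.366, 0.586 and 0.451 CPM. With LTA for 6 h the KO libraries held 7.03, 6.88 and 6.31 CPM and the WT libraries 0.555, 0.541 and 1.3 CPM. In each of these conditions all 3 KO libraries lay above the 3 WT libraries, as for 14.8% of genes untreated, 34.1% with LPS and 33.2% with LTA. In counts, the WT libraries held 3, 5 and 4 with LPS and 5, 5 and 12 with LTA, against 70 or more in each KO library of 6 h. The log2 fold change was 3.66 ± 0.26 with LPS (adjusted p = 2.3e-18) and 3.05 ± 0.22 with LTA (adjusted p = 9.1e-18), ranks 48 and 101 of all tested genes.

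At 2 h the genotypes overlapped for Rab4a with LPS, where the KO libraries held 5.66, 7.87 and 6.47 CPM and the WT libraries 6.15, 3.41 and 5.62 CPM. With LTA for 2 h the KO libraries held 6.38, 6.94 and 6.69 CPM and the WT libraries 5.46, 6.56 and 4.91 CPM. These levels rest on 6 to 22 counts per library. The log2 fold change was 0.43 ± 0.3 with LPS (adjusted p = 0.46, 95% interval -0.18 to 1.04) and 0.25 ± 0.31 with LTA (adjusted p = 0.75, 95% interval -0.37 to 0.87). Both WT groups of 2 h lay above the untreated WT group, and no KO group of 2 h lay above the untreated KO group.

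**Figure D2:**
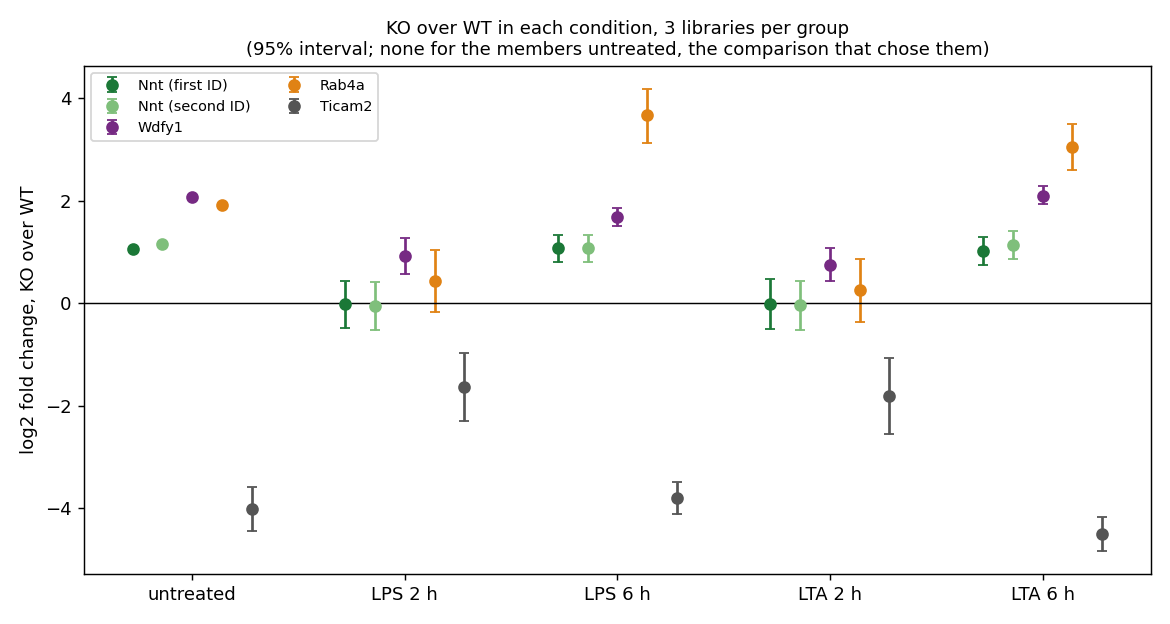
Log2 fold change of KO over WT for each member and for Ticam2 in each condition, with the 95% interval of the fit, which is left out for the members in the untreated comparison that chose them. Nnt and Rab4a have intervals that include 0 at both 2 h comparisons, and the fold change of Ticam2 is nearer to 0 there, at -1.63 and -1.81.

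The difference between genotypes was larger at 6 h than at 2 h for each member. This contrast was added after the data were seen. With LPS, the log2 difference at 6 h exceeded that at 2 h by 1.1 ± 0.27 for Nnt (adjusted p = 0.00083), by 0.76 ± 0.2 for Wdfy1 (adjusted p = 0.0026) and by 3.22 ± 0.45 for Rab4a (adjusted p = 2.3e-08). With LTA it exceeded it by 1.04 ± 0.28 for Nnt (adjusted p = 0.0036), by 1.35 ± 0.19 for Wdfy1 (adjusted p = 4.3e-08) and by 2.79 ± 0.42 for Rab4a (adjusted p = 1.2e-07). Of all tested genes 45.5% were called in this contrast with LPS and 40.6% with LTA. Ticam2 itself differed in it, by -2.17 ± 0.45 with LPS and -2.68 ± 0.51 with LTA. The part in this of the library set, with its lower depth, its Alb, Fn1 and Col1a1 counts and its Hbb-bs at 0, was not tested. The Nnt call was lost in 2 settings that left libraries out. Without WT replicate 3 in every condition it was 0.84 with LPS (adjusted p = 0.056), and without WT replicate 3 of LTA for 2 h it was 0.87 with LTA (adjusted p = 0.057).

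Between ligands the members differed little. In KO macrophages at 6 h none of them differed between LPS and LTA, with log2 differences of 0.05 ± 0.11 for Nnt, -0.03 ± 0.06 for Wdfy1 and -0.14 ± 0.13 for Rab4a, where 2.66% of genes were called. In WT macrophages at 6 h, where 31.8% of genes were called, Wdfy1 was higher with LPS than with LTA, by 0.39 ± 0.12 (adjusted p = 0.01), and Nnt and Rab4a were not called (-0.01 ± 0.17 and -0.75 ± 0.44). The KO over WT difference in Wdfy1 was accordingly smaller with LPS than with LTA at 6 h, by a log2 of -0.42 ± 0.13 (adjusted p = 0.015), in a contrast that called 22.7% of genes. The Wdfy1 call in WT was lost without WT replicate 1 of LTA for 6 h, at 0.29 (adjusted p = 0.12), and the difference between ligands without it was -0.32 (adjusted p = 0.13). Scaling by library totals alone also ended both calls, at 0.29 and -0.34. The overlapping gene Mrpl44 moved the same way, by 0.59 ± 0.09 in WT and by -0.47 ± 0.12 in the difference, and its part in the Wdfy1 result was not tested. At 2 h no member was called between ligands in either genotype, where 1.4% of genes were called in KO and 1.2% in WT, nor in the difference between ligands of KO over WT, where 0.126% were.

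The order of the groups by mean level differed among the members. For Wdfy1 all 5 KO groups, from 24.7 ± 1.09 to 37.6 ± 1.99 CPM, ranked above all 5 WT groups, from 8.23 ± 1.27 to 17.4 ± 1.83 CPM (SD, n = 3 each). The 3 highest groups, untreated KO and KO with LTA and with LPS for 6 h, overlapped in their ranges, as did the 2 lowest, untreated WT and WT with LTA for 6 h. Scaled by library totals alone, WT with LPS for 6 h (mean 7.53 CPM) lay below untreated WT (10.2 CPM). For Rab4a untreated KO was highest at 8.38 ± 0.401 CPM without overlap, the next 6 groups, from 6.74 ± 0.38 CPM in KO with LTA for 6 h to 5.06 ± 1.45 CPM in WT with LPS for 2 h, each overlapped the next in the order, and untreated WT and both WT groups of 6 h lay below all of them. For Nnt untreated KO was highest at 27.6 ± 1.38 CPM, the 4 groups of 2 h and the KO groups of 6 h followed at 17.8 to 19.9 CPM, each overlapping the next, and untreated WT at 12.8 ± 0.323 CPM and WT with LPS at 8.73 ± 0.826 CPM and LTA at 8.45 ± 1.74 CPM for 6 h came last.

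Likeness between genes was measured as the root mean square difference over the 10 group means of log2 CPM after centring each gene. The candidates were 9326 tested genes whose log2 CPM averaged 2 or more. IDs without a symbol, or with a provisional symbol such as those of the Gm and Rik forms, were not among them. The Nnt IDs differed from each other by 0.04. Nnt differed from Wdfy1 by 0.53 and from Rab4a by 0.75, and Wdfy1 from Rab4a by 0.71, and the members were left out of the rankings of nearest genes. Nearest to Nnt were Nedd4l, a ubiquitin ligase, at 0.18, followed by Ltc4s, the leukotriene C4 synthase, Fads2, a fatty acid desaturase, and the tubulin gene Tubb2a at 0.19 each, and Cdkn3 at 0.21. The nearest genes to Wdfy1 were further away, with Arl15 and Gpx3, a secreted glutathione peroxidase, at 0.48, Cd36, a scavenger receptor, and Tmem158 at 0.54, and C1qtnf6 at 0.55, so that only Arl15 and Gpx3 of these were nearer to it than Nnt. For Rab4a they were Tal2 at 0.42, C77080 and Speg at 0.49, and Dlgap5 and Pck2, the mitochondrial phosphoenolpyruvate carboxykinase, at 0.52. In untreated macrophages the log2 fold change of KO over WT of these genes ranged from 0.15 for Speg to 0.87 for Arl15.

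Genes that lie near the members on their chromosomes were examined because their position was not used in the choice. Of 24 other tested genes whose start lies within 5 Mb of that of Nnt, 0 were called higher and 6 lower in untreated KO macrophages, against 5.97% and 7.47% of all tested genes. Around Wdfy1 the counts were 4 higher and 1 lower of 44, and around Rab4a 9 higher and 4 lower of 97. Around Ticam2 they were 0 higher and 4 lower of 30. None of the called neighbours of Wdfy1 or Ticam2 differed by more than a log2 of 1. Around Nnt 2 of the 24 did (8.33%) and around Rab4a 1 of the 97 (1.03%), against 0.82% of all tested genes.

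Near Nnt, the next tested gene, Paip1, which starts 19.6 kb away and encodes a poly(A)-binding protein partner, was not called in any condition (log2 fold change -0.15 ± 0.07 untreated, adjusted p = 0.13). The following values were picked out for their size. Tmem267, which starts 79 kb from Nnt, was lower in untreated KO macrophages, at 3.28 ± 0.544 CPM against 6.73 ± 0.654 CPM in WT (SD, n = 3 each), a log2 fold change of -1.02 ± 0.15 (adjusted p = 3e-07). It was higher in KO with LPS for 6 h, by 0.64 ± 0.24 (adjusted p = 0.02), and not called with LTA for 6 h or at 2 h. Itga1, the integrin alpha 1 subunit, 4307 kb from Nnt on the other side, was lower by a log2 of -1.42 ± 0.31 (adjusted p = 0.00073). Near Rab4a, the provisional gene Gm42047 was higher by 1.4 ± 0.27 (adjusted p = 9.2e-05).

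With LPS for 6 h, 5 genes were called higher and 12 lower of the 24 around Nnt, 11 higher and 15 lower of the 44 around Wdfy1, 39 higher and 18 lower of the 97 around Rab4a, and 4 higher and 13 lower of the 30 around Ticam2, against 32.7% and 30.6% of all tested genes. With LTA for 6 h the counts were 3 higher and 10 lower around Nnt, 9 and 15 around Wdfy1, 41 and 16 around Rab4a, and 4 and 12 around Ticam2, against 30.5% and 28% of all tested genes. On the side of Wdfy1 away from Mrpl44, the nearest tested gene was called in the opposite direction to it at 6 h. Serpine2, a serine protease inhibitor starting 85 kb from Wdfy1, was lower in KO with LPS for 6 h (-1.45 ± 0.21, adjusted p = 1.3e-08) and with LTA for 6 h (-2.77 ± 0.17, adjusted p = 3.7e-21).

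**Figure D3:**
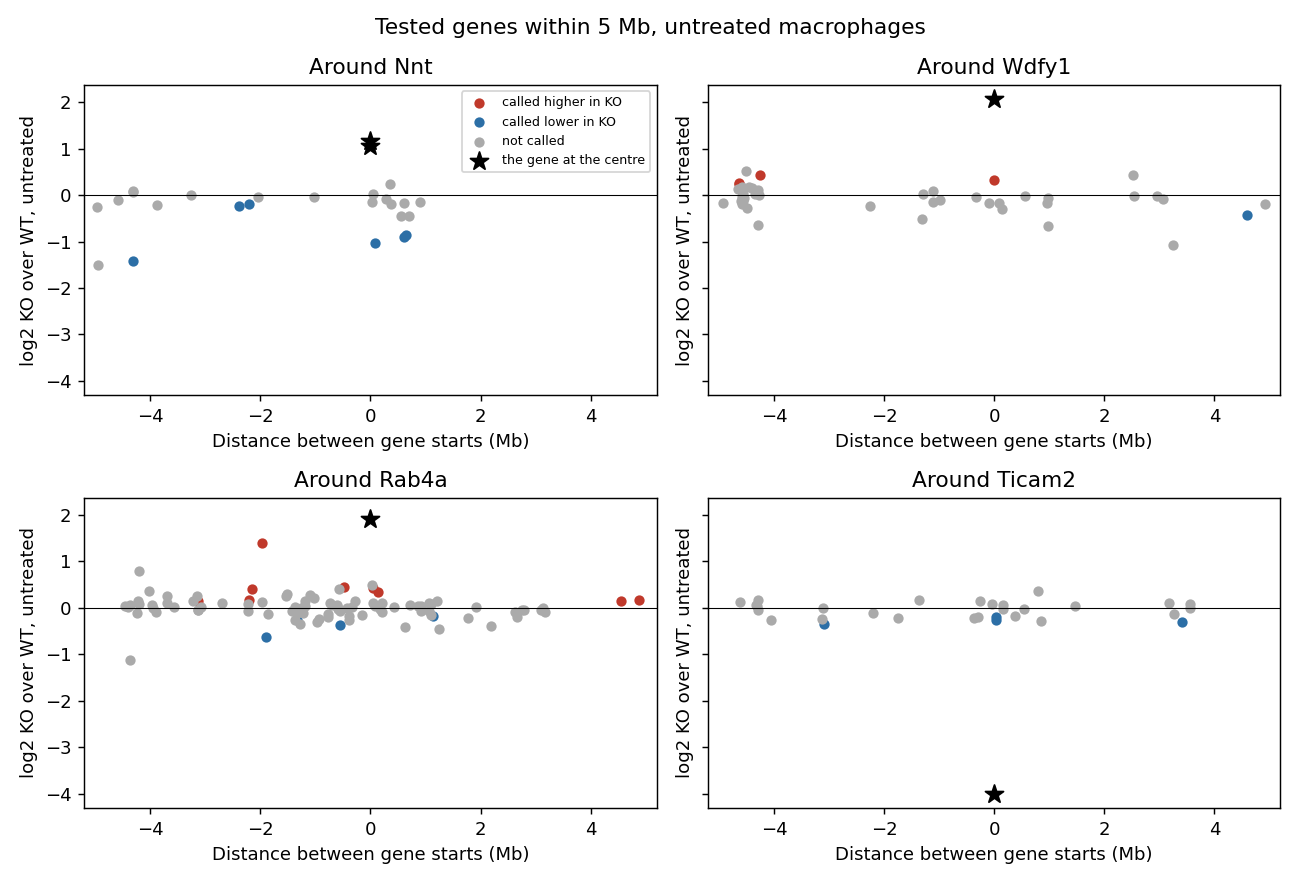
Log2 fold change of KO over WT in untreated macrophages for tested genes starting within 5 Mb of Nnt, Wdfy1, Rab4a or Ticam2, against the distance between gene starts in Mb; red and blue points are genes called higher or lower in KO, grey points are not called, and stars are the central genes. That the stars of Nnt, Wdfy1 and Rab4a stand apart follows from choosing the members on this comparison, and Ticam2 is the targeted gene. Of the points around the stars, 3 called ones differ by more than a log2 of 1, 2 of them around Nnt and 1 around Rab4a. Of all tested genes 0.82% did so.

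Other genes known to differ between C57BL/6 substrains were set beside Nnt. Those named here were in the table, and Dock2 and Cyfip2 had enough counts to be tested. Dock2, an activator of Rac in leukocytes that is duplicated in some C57BL/6N colonies, had 158 ± 3.87 CPM in untreated KO and 135 ± 6.61 CPM in untreated WT macrophages (SD, n = 3 each), a log2 fold change of 0.23 ± 0.05 (adjusted p = 0.00024). Cyfip2, a regulator of actin that carries a missense change in C57BL/6N, was not called untreated, and was higher in KO by 0.61 ± 0.07 with LPS (adjusted p = 5.3e-12) and by 0.74 ± 0.07 with LTA for 6 h (adjusted p = 1e-14). Gabra2 had at most 8 counts and Mmrn1 at most 2 in any library. Neither Dock2 nor Cyfip2 was called at 2 h.

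In untreated macrophages, 5.97% of all tested genes were called higher and 7.47% lower in KO, and few genes of the pathway lists around the members were called. Of 18 tested genes of mitochondrial NADPH supply and peroxide handling, without Nnt, 1 was called higher and 2 lower in KO, with a median log2 fold change of 0.04 against 0 over all genes. The 2 that fell were Sod2, the mitochondrial superoxide dismutase, at -0.73 ± 0.05 (adjusted p = 7.6e-18), and the peroxiredoxin gene Prdx5, at -0.29 ± 0.05. Of 20 tested genes of PI3P and FYVE proteins, 1 was called in each direction. Of 24 tested genes of recycling through Rab4 and Rab5, 2 were called higher and 3 lower, the largest difference being that of Ehd1, an ATPase of the recycling compartment, at -0.66 ± 0.04 (adjusted p = 3e-18). Rab4b, the closest relative of Rab4a, had 18.2 ± 0.0533 CPM in untreated KO and 16.3 ± 0.497 CPM in untreated WT macrophages and was not called in any condition.

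After LPS for 6 h, 12 genes of the mitochondrial list were called higher in KO and 3 lower, with a median log2 fold change of 0.3 against 0.01 over all genes, where 32.7% of genes were higher and 30.6% lower. Among them Idh1, which makes NADPH in the cytosol, had 194 ± 5.4 CPM in KO and 103 ± 6.98 CPM in WT (log2 fold change 0.91 ± 0.05, adjusted p = 3.7e-24), and the glutathione peroxidase gene Gpx1 was higher by 0.72 ± 0.05. Sod2 had 1620 ± 98.9 CPM in KO and 3500 ± 106 CPM in WT (-1.11 ± 0.05, adjusted p = 5.3e-29), and Prdx5 fell by 1.13. With LTA for 6 h the counts were 12 higher and 4 lower, where 30.5% of all genes were higher and 28% lower. At 2 h Sod2 was higher in KO instead, by 1 ± 0.05 with LPS and 1.04 ± 0.05 with LTA.

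The PI3P and FYVE list was called in both directions with LPS for 6 h, 6 genes higher and 8 lower of 20, and with LTA for 6 h, 8 higher and 6 lower. Snx2, a retromer sorting nexin, had 194 ± 4.18 CPM in KO and 505 ± 7.12 CPM in WT (-1.38 ± 0.04, adjusted p = 1.9e-35). Ankfy1, a Rab5 effector with a FYVE domain, differed by -0.99 ± 0.05. Pikfyve, the kinase that makes PI(3,5)P2 from PI3P, differed by -0.78 ± 0.07, and the PI3P phosphatase gene Mtm1 by -0.71 ± 0.08. These values are for LPS at 6 h, and the genes were named for the lowest p. Among the 6 called higher were Wdfy3, by 0.49 ± 0.06 (adjusted p = 3.7e-10), and Mtmr4, by 0.72 ± 0.18 (adjusted p = 0.00052). Wdfy2, the relative of Wdfy1, had 51.6 ± 1.99 CPM in KO and 81.6 ± 6.14 CPM in WT (-0.66 ± 0.07, adjusted p = 2.5e-11), and was not called in the other 4 conditions.

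In the recycling list 5 genes were called higher and 12 lower in KO with LPS for 6 h, and 3 higher and 12 lower with LTA, of 24 each. These stand against 32.7% higher and 30.6% lower of all tested genes with LPS and 30.5% and 28% with LTA. Rab11fip1, an effector of Rab11 in recycling, had 57.4 ± 4.1 CPM in KO and 407 ± 10.6 CPM in WT with LPS (-2.83 ± 0.05, adjusted p = 9.9e-46). Ehd1 had 620 ± 11.1 CPM in KO and 1360 ± 49.4 CPM in WT (-1.13 ± 0.04), and Rab22a and the Rab5 effector gene Appl1 differed by -1.24 ± 0.05 and -1.44 ± 0.06. Scaled by library totals alone, the median of all genes moved to 0.54 with LPS, and 61.3% of them were called higher and 14.5% lower. On that scale the recycling list held 16 genes higher and 8 lower and the PI3P list 13 higher and 4 lower. The balance of calls in both lists thus turned with the scaling, as it did over all genes. Their medians, 0.35 and 0.38, lay below that of all genes, as they did by TMM (-0.17 and -0.14 against 0.01). The genes of these lists named with a value for LPS at 6 h kept their direction under library totals. With library totals, Rab4a had a log2 fold change of 4.16 with LPS.

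**Figure D4:**
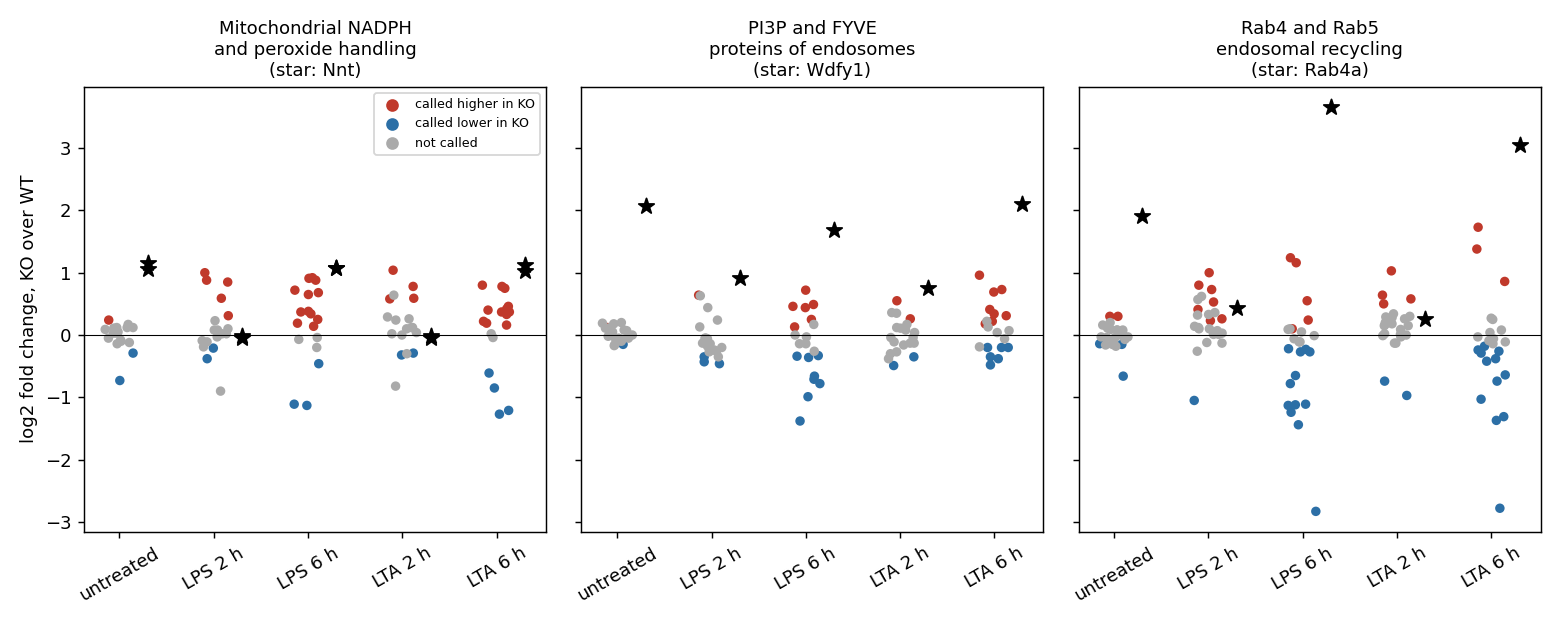
Log2 fold change of KO over WT for each tested gene of 3 pathway lists in each condition, with the member that belongs to the pathway as a star; red and blue points are called higher or lower in KO and grey points are not called. In untreated macrophages the list genes lie between -0.73 and 0.3. The stars lie above all of them there, which follows from choosing the members on that comparison.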

How the data were processed

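Bulk RNA-seq of 30 libraries was analysed, 3 for each of 10 groups taken from the labels. Replicates are cells of separate animals, 3 of each genotype, per the labels. The authors deposited expected counts for 32361 Ensembl gene IDs in 1 table. The builds GRCm38 and mm10 and the tools STAR 2.7.11, fastp 0.24.0, Subread 2.1.1, featureCounts and SAMtools 1.22.1 are named in the submitters' processing notes. Settings and strand of counting: not given in the sources used here. Among count values above 0 in the deposited table, 25.2% were not whole, so reads can be split over genes. The labels' harvest text names 6 h alone, and the 12 libraries labelled 2 h were kept as labelled.

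Counts were rounded and fitted in R 4.3.3 with edgeR 4.0.16 (filterByExpr by group with a minimum count of 10 and a minimum total of 15, 15119 genes; TMM; 1 coefficient per group; robust quasi-likelihood test, 20 residual degrees of freedom). P-values were adjusted by Benjamini-Hochberg over all tested genes, with a threshold of 0.05. Standard errors are the absolute log2 fold change over the square root of F. Levels are TMM-scaled CPM. DESeq2 1.42.0, other scalings, no filter, rounding down, fits of 1 time only, a replicate block and leaving out libraries were the alternatives. The scripts were tested on simulated data. GENCODE M21 gave symbols for 26304 IDs and GRCm38 coordinates.

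The members, gene lists and tests were chosen with earlier results of these data known. Named were the members, Ticam2, substrain genes, the 5 genes most like each member, the genes next in the untreated ranking, up to 4 per list by p in KO against WT with LPS for 6 h, and the nearest neighbours; other genes named were chosen after their values were seen. Some genes these rules name are not reported here. Summing the Nnt IDs, leaving out 1 replicate number of a genotype and the 6 h minus 2 h contrast were added after seeing the data. The intervals come from the quasi-likelihood fit and take in the spread among libraries of a group as well as counting error. They do not cover other differences between the KO and the WT animals. Floors of 3 counts cover counting error only.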

Additional observations from a re-analysis of the deposited data

Results flagged for a closer look

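The KO over WT difference of every member differed between the 6 h and the 2 h libraries of the same ligand. With LPS the log2 difference at 6 h minus that at 2 h was 1.1 for the first Nnt ID, 1.12 for the second, 0.76 for Wdfy1 and 3.22 for Rab4a. With LTA it was 1.04 for the first Nnt ID, 1.17 for the second, 1.35 for Wdfy1 and 2.79 for Rab4a. Adjusted p by edgeR's quasi-likelihood test ranged from 2.3e-08 for Rab4a with LPS to 0.0036 for the first Nnt ID with LTA. For Nnt the call was lost without WT replicate 3 in every condition with LPS (0.84, adjusted p = 0.056) and without WT replicate 3 of LTA for 2 h with LTA (0.87, adjusted p = 0.057). Time and library set cannot be told apart in this contrast.

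The KO over WT difference of Wdfy1 at 6 h differed between the ligands, LPS minus LTA, by a log2 of -0.42 (adjusted p = 0.015, edgeR). It was -0.32 (adjusted p = 0.13) without WT replicate 1 of LTA for 6 h and -0.39 (adjusted p = 0.06) without WT replicate 3 of it.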

How the results depend on the processing

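The KO against WT results of the members in treated macrophages kept their direction where called, and their side of the threshold, in all 316 combinations of result and alternative. Of 284 for LPS against LTA 280 did, and of 404 for differences between KO over WT differences 396 did. Those that did not all lost a call. For Wdfy1 the WT difference between LPS and LTA at 6 h (0.39) was 0.29 with library totals alone, 0.29 to 0.51 when 1 library was left out, and 0.29 and 0.34 without WT replicates 1 and 3 in every condition. Its difference between ligands at 6 h (-0.42) was -0.34 with library totals, -0.54 to -0.32 when 1 library was left out, and -0.38, -0.32 and -0.37 without KO replicate 2, WT replicate 1 and WT replicate 3 in every condition. The 6 h minus 2 h contrast of Nnt was 0.84 with LPS without WT replicate 3 in every condition, and 0.87 to 1.22 with LTA when 1 library was left out. For the losses on leaving libraries out, fewer samples were fitted; for library totals the cause was not tested. The genes called between LPS and LTA in KO at 6 h (402) numbered 175 to 850 when 1 library was left out, and 105 and 117 without KO replicates 2 and 3 in every condition. At 2 h they numbered 103 and 127 without those (211 with all libraries) in KO, and 111 and 117 without WT replicates 2 and 3 (181 with all libraries) in WT. All of these use edgeR, with the lone or remaining samples taken to vary like the other groups.

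Scaled by library totals alone, the median gene moved to 0.54 (LPS) and 0.44 (LTA) in KO against WT at 6 h, with 9268 higher and 2191 lower for LPS (4951 and 4625 by TMM) and 8906 and 1836 for LTA (4604 and 4237 by TMM). At 2 h it gave 913 higher and 1485 lower for LPS (1377 and 1095 by TMM) and 836 and 1047 for LTA (1184 and 788 by TMM). Between LPS and LTA it gave 2136 higher and 3409 lower in WT at 6 h (2699 and 2111 by TMM), 136 and 62 in KO at 2 h (172 and 39 by TMM), and 2304 and 1664 for the difference between ligands at 6 h (1382 and 2043 by TMM). For 6 h minus 2 h it gave 6802 and 1685 with LPS (3328 and 3551 by TMM) and 6030 and 1421 with LTA (3042 and 3101 by TMM). On that scale the log2 fold change of Nnt at 6 h was 1.59 with LPS and 1.45 with LTA.

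Replicate numbers are shared between the genotypes. The correlation of same-numbered deviations was from -0.01 to 0.45 between KO and WT, and from -0.25 to 0.09 between ligands within a genotype. It was not over 0.1 for all 3 pairs in any of the 9 comparisons. With a replicate block the log2 fold change with LPS for 6 h was 1.07 for Nnt, 1.68 for Wdfy1 and 3.66 for Rab4a, 9590 genes were called, and no call of a member changed. Of 3 KO samples with LPS for 6 h, 2 correlated best with their own number in WT. The labels give 3 animals per genotype; blocking on genotype and number, 455 genes were called between LPS and LTA in KO at 6 h. Depth limits the 2 h values, where Rab4a had 6 to 22 counts per library.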
